A study of Homo sapiens with 208 samples.

Results

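MYC, MYCN, MYCL, MAX, MXD1, MXD3, MXD4, MXI1, MNT and MLX make up the MYC, MAX and MXD network. The 10 genes were found on the arrays through the transcript accessions of their probes, and 20 of the 41000 probes, for 10 of the 16961 genes with a matched probe, belonged to them. All 10 genes and 19 of the 20 probes passed the filter on dim signals, MYCL only through the gefitinib courses of PC9. They were followed by one-colour microarrays in human lung adenocarcinoma cells. PC9 carries an activating deletion in EGFR and is sensitive to gefitinib, an inhibitor of the EGFR kinase, and PC9M2 (labelled PC9GRM2) is 1 gefitinib-resistant clone derived from it. Both lines had been starved for 48 h and were then left untreated, given EGF at 100 ng/ml, given gefitinib at 0.5 μM, or given gefitinib and then EGF. RNA was taken at 0 h, 0.5 h and then every hour to 24 h, which gave 26 time points in each of 8 courses with 1 array per time point. The matched time points therefore stood in for replicates, and neighbouring hours of 1 culture are not independent.

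MYC is a transcription factor that binds DNA as a pair with MAX, most strongly at the E-box CACGTG, and raises the expression of genes for ribosome production, metabolism and cell division. MXD1, MXD3, MXD4 and MXI1 (also called MXD2), together with MNT, compete with MYC for MAX and bind the same sites, where they repress by recruiting SIN3 and histone deacetylases. MLX is a MAX-like partner for the glucose-sensing factors MLXIP (MondoA) and MLXIPL (ChREBP) and for some of the MXD proteins. In epithelial cells MYC RNA and protein are short-lived, and MYC is a known early target of growth factor signalling through ERK, whereas MXD genes are known for their expression in cells that leave the cell cycle.

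Several properties of the arrays bear on every value below. Between 24755 and 36332 of 45015 features were well above background on an array. The 4 treatments shared a slide at each time point of a line, 52 slides in all, each treatment always in the same position, so that treatment and slide position cannot be told apart. The lines shared no slide and no scan day, so that line and scan period cannot be told apart either. At 0.5 h the PC9M2 arrays labelled EGF and EGF with gefitinib went against their labels: their difference over 13257 genes had a correlation of -0.39 with the mean difference of the other time points, against at least 0.24 at every other time point of the 4 gefitinib comparisons. The labels were kept, and each result that rests on those arrays is given with and without 0.5 h where it mattered. At 0 h the same correlation was already 0.34 in PC9 and 0.31 in PC9M2 for gefitinib alone, and 0.28 and 0.24 with EGF. The 0 h arrays are therefore not a baseline free of the gefitinib difference, and the reason was not tested. The arrays least like their neighbours within 3 h were untreated PC9M2 at 11 h (r = 0.943) and gefitinib-treated PC9 at 16 h (r = 0.962). The epithelial markers EPCAM, KRT8, KRT18, KRT19, CDH1 and CLDN7 were well above background on every array. Of 7 markers of other cell types, PTPRC was so on 1 array, COL3A1 on 6, CDH5 on 34, HBB on 40, CD3E on 84, PECAM1 on 207 and CD68 on every array. Their mean log2 level ran from 4.70 to 5.25 over untreated PC9 and from 4.51 to 5.77 over gefitinib-treated PC9, from 4.06 to 5.21 and from 4.17 to 4.94 in PC9M2, and its part in the results was not tested. In such bulk RNA, fewer cells that express a gene and less RNA per cell cannot be told apart.

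The reference promoters of 9 members were searched for the E-box of the network. CACGTG, which reads the same on both strands, was found in the 250 bases before the start of MXD4, MNT and MLX, and not in those of MYCN, MYCL, MAX, MXD1, MXD3 or MXI1. Of 35116 human promoters, 6.34% held it in a window of that length. The 3 promoters are printed because their genes took different courses under gefitinib: MXD4 rose, MNT did not pass the test and MLX fell. The E-box is in capitals, the sequences run 5′ to 3′ on the strand of the gene, and they are those of RefSeq on GRCh38.p14, for MXD4 chr4:2262110-2262359 (minus strand), for MNT chr17:2401061-2401310 (minus strand) and for MLX chr17:42566850-42567099 (plus strand).
MXD4: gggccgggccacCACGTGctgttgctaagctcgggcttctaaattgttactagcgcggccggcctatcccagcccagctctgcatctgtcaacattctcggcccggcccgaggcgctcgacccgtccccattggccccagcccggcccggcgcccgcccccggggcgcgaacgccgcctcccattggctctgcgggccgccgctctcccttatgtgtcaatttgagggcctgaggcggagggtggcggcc
MNT: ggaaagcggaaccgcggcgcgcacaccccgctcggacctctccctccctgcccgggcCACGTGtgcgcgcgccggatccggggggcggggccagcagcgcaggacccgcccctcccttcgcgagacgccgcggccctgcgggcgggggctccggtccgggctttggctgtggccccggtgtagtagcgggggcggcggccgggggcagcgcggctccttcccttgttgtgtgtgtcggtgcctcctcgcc
MLX: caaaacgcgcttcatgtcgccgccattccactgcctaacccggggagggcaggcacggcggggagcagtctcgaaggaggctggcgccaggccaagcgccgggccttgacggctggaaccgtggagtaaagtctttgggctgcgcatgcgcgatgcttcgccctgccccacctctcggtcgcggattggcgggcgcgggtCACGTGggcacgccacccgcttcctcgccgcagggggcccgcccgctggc
The E-box began 238 bases before the start in MXD4, 193 in MNT and 50 in MLX. A forkhead motif, GTAAACA on either strand, was present in 1 of the 3 promoters of MXI1, as TGTTTAC 151 bases before the start, and in none of the other members' promoters, against 2.98% of all promoters. A match says only that these letters stand in the window.

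Averaged over the time points, gefitinib lowered MYC and raised MXD4, MXD3 and MXI1 in both lines, while the difference of MNT was within its error. In PC9M2, MYC (by its brighter probe) and MXI1 did not pass the test with a standard error inflated for the correlation of neighbouring hours. Each gene was first represented by its probe of largest variance, and on that basis 7 of the 10 members were called in PC9 (5 higher, 2 lower) and 8 in PC9M2 (4 higher, 4 lower) with limma and Benjamini-Hochberg adjustment over all genes. Across all 13257 genes tested, 72.2% were called in PC9 (34.8% higher, 37.4% lower) and 66.6% in PC9M2 (32.6% higher, 34% lower), so that the number of members called was near the background, and the sizes and time courses below are the description. MYCL, which passed the filter only where it was high, and MYC by its dim probe are among these counts, and nothing is read from their calls. With EGF present in both arms, 7 members were called in PC9 and 9 in PC9M2, against 78.9% and 74.5% of all genes. The values by probe below come from a fit over all 29917 probes that passed the filter, of which 67.9% and 63.5% were called for gefitinib alone and 76% and 72.3% with EGF.

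**Figure D1:**
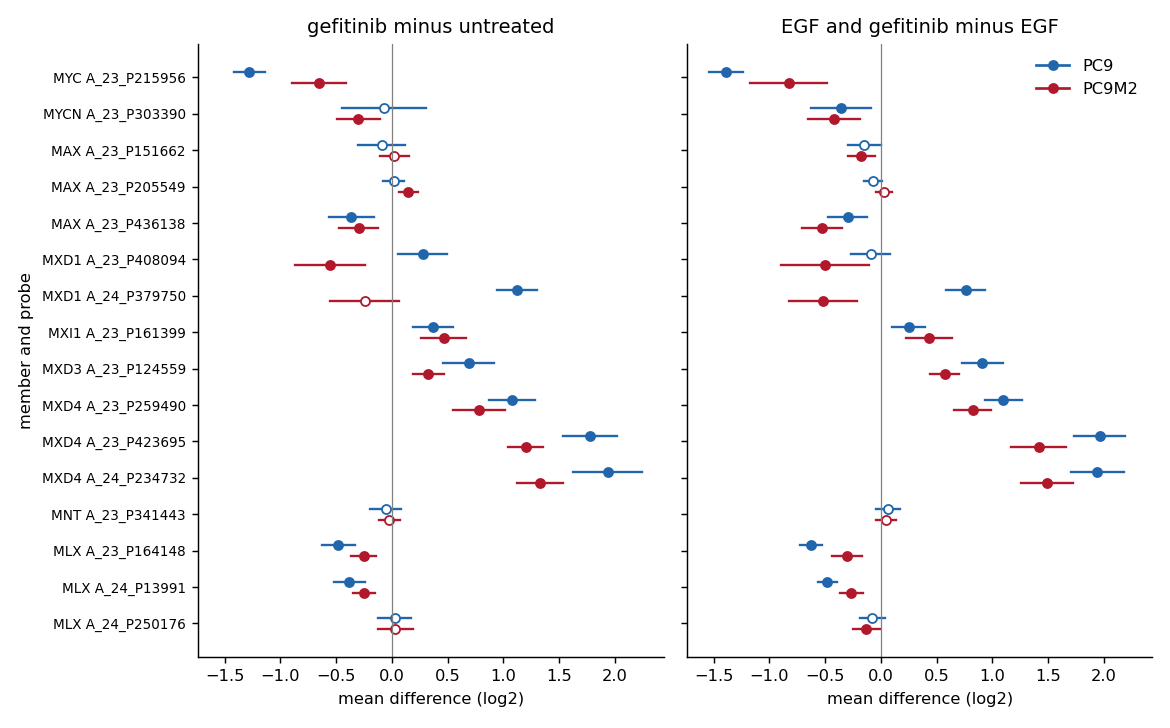
Mean difference in log2 signal over 26 matched time points (19 and 20 for MYCN in PC9; x axis) for each probe of the members (y axis), as gefitinib minus untreated (left) and EGF with gefitinib minus EGF (right), in PC9 and PC9M2. Bars are 95% intervals, filled points passed an adjusted p of 0.05, and MYCL and the dim MYC probe are left out; MYC lies to the left of 0 and the MXD4 probes to the right in both lines, while MXD1 lies on opposite sides in the lines by both probes on the left and by A_24_P379750 on the right.

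MYC had a bright probe, printed in 10 spots on each array, and a dim probe that the rule of the largest variance picked. For the bright probe (A_23_P215956), log2 signal in untreated PC9 ran from 13.02 at 24 h through a median of 13.82 to 15.46 at 3 h. In gefitinib-treated PC9 it ran from 11.78 at 24 h through 12.68 to 13.71 at 3 h. Gefitinib was lower at 26 of 26 time points, and 19 of the 26 gefitinib arrays lay below every untreated array, although the ranges overlapped. The mean difference was -1.28 (SE 0.069, n = 26, limma adjusted p = 5.01e-15), or 2.42-fold lower. The untreated arrays had saturated spots of this probe at 2 h (1 spot) and 3 h (all 10), which limits the size there, and without 0.5, 2 and 3 h the difference was -1.23 (adjusted p = 2.51e-13). It was largest at 16 h, at -1.78, on 1 of the arrays least like their neighbours, and smallest at 10 h, at -0.68.

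With EGF in both arms, MYC fell in PC9 too. EGF-treated PC9 ran from 13.33 through 14.01 to 15.77, and PC9 with EGF and gefitinib from 11.65 through 12.71 to 13.86. All 26 time points were lower, 23 of the 26 arrays lay below every array of the EGF course, and the mean difference was -1.39 (SE 0.0752, adjusted p = 3.39e-15; -1.31 without 0.5, 2 and 3 h, when the EGF arrays had saturated spots). The 2 gefitinib comparisons of a line share no array, but the 4 arrays of a time point share a slide.

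In PC9M2 the MYC difference was deep in the first hours, the arrays before 1 h included, and shallow afterwards. It averaged -1.58 over 0 to 4 h and -1.52 over 1 to 4 h. Untreated PC9M2 ran from 13.15 at 8 h through 14.13 to 14.80 at 11 h, and gefitinib-treated PC9M2 from 11.42 at 1 h through 13.63 to 14.53 at 12 h. The only time point with a higher value under gefitinib was 8 h (by 0.24), and the deepest fall was 2.48 at 1 h. 6 of the 26 gefitinib arrays, against 19 in PC9, lay below every untreated array. In PC9M2 this count was set by the untreated array at 8 h. Over all genes the gefitinib difference at 8 h had a correlation of 0.47 with the other time points. At 7 h that correlation was 0.82 and at 9 h 0.87. The mean difference was -0.65 (SE 0.1167, adjusted p = 1.75e-05), and with a standard error inflated for the correlation of neighbouring hours it was no longer called (adjusted p = 0.0994).

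Averaged over 0 to 4 h, the MYC difference was -1.44 ± 0.31 (SD over 6 time points) in PC9 and -1.58 ± 0.57 in PC9M2. Over 5 to 9 h it was -1.09 ± 0.22 in PC9 and -0.26 ± 0.30 in PC9M2, and over 10 to 14 h -1.09 ± 0.34 and -0.20 ± 0.18 (5 time points each). It was -1.39 ± 0.44 and -0.48 ± 0.21 over 15 to 19 h and -1.35 ± 0.24 and -0.57 ± 0.19 over 20 to 24 h. From 5 h on, the means ± SD of the lines did not meet. In the first window the untreated PC9 arrays had saturated spots and no PC9M2 array had any, so that the 2 values of that window are not compared. The gefitinib difference was smaller in PC9M2 by 0.62 (SE 0.1177, 95% interval 0.38 to 0.87, adjusted p = 1.75e-04, less negative in PC9M2 at 22 of 26 time points). That call was lost with unpaired courses (adjusted p = 0.0534) and with time points 3 h apart (0.0566), and over the first 13 time points alone the difference was 0.40 (adjusted p = 0.205). Without 0.5, 2 and 3 h it was 0.69 (adjusted p = 1.25e-04). Of all probes, 30% were called in this comparison, and of all genes 34.1%, with 3 members among them (MXD1, MXD3 and MXD4).

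As a slope over time, the MYC difference showed no called trend in PC9 (-0.0003 per hour, adjusted p = 0.983) and shrank in PC9M2 by 0.0418 per hour (SE 0.0138, adjusted p = 0.0184), with 46.7% and 35.7% of all probes called. Over genes, 2 members in PC9 and 4 in PC9M2 had a called slope, beside 52.2% and 40.9% of all genes. The slopes differed by 0.0421 per hour (adjusted p = 0.0418, a test added after the data were seen, in which 13.8% of all probes and 18.2% of all genes were called). Without 0.5 h the PC9M2 slope was 0.036 (adjusted p = 0.0533) and the difference 0.038 (adjusted p = 0.0962), so that neither call held.

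**Figure D2:**
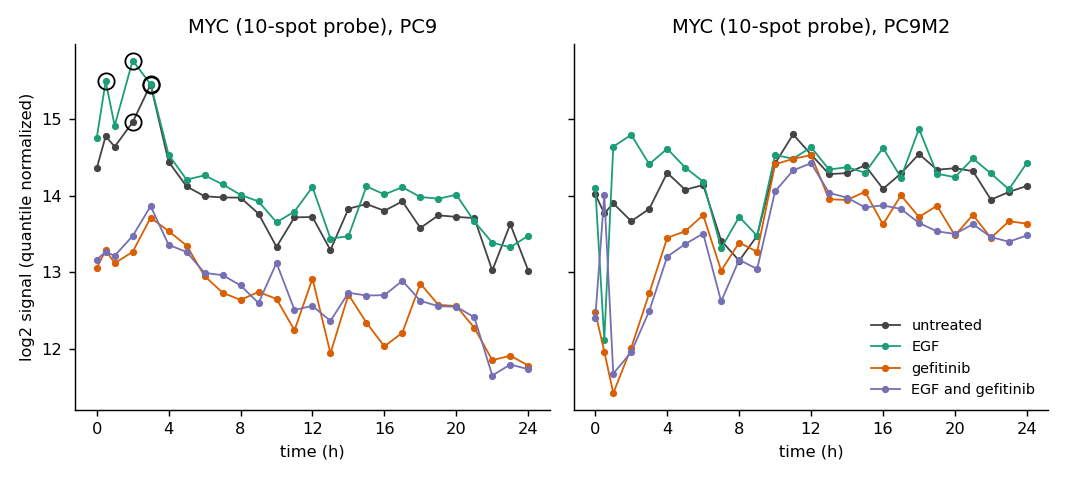
Log2 signal of the bright MYC probe (y axis, quantile normalized) against hours (x axis) in PC9 (left) and PC9M2 (right), with 1 array per point and 1 line per treatment. Circles mark PC9 arrays with saturated spots; in PC9 both gefitinib courses stay below the others to 24 h, in PC9M2 they start low and come close to the others from about 8 h, and the PC9M2 arrays labelled EGF and EGF with gefitinib cross at 0.5 h.

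With EGF in both arms of PC9M2, MYC was lower by 0.83 (SE 0.1701, adjusted p = 8.68e-05). The EGF course ran from 12.11 at 0.5 h through 14.36 to 14.88, and the course with EGF and gefitinib from 11.67 at 1 h through 13.50 to 14.43. At 0.5 h the array labelled EGF read 12.11 and the array labelled EGF with gefitinib 14.01, beside 13.77 untreated and 11.96 with gefitinib on the same slide. Without 0.5 h the difference was -0.94 (adjusted p = 1.05e-06). Over 1 to 4 h it was -2.29 ± 0.75 (SD over 4 time points), over 5 to 9 h -0.68 ± 0.21 and over 10 to 14 h -0.31 ± 0.13. It was deeper again later, at -0.72 ± 0.33 over 15 to 19 h and -0.81 ± 0.10 over 20 to 24 h.

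The dim MYC probe (A_24_P38363) had lower medians in every course with gefitinib, many of them from arrays near background. It was well above background on 15 untreated and 8 gefitinib arrays of PC9 and on 23 and 12 of PC9M2, and on 21 and 7 arrays of PC9 and 24 and 13 of PC9M2 with EGF. The median log2 signal was 5.14 untreated and 3.44 with gefitinib in PC9, and 5.17 and 4.19 in PC9M2. With EGF it was 5.64 without and 3.58 with gefitinib in PC9, and 5.47 and 4.16 in PC9M2. Since so few gefitinib arrays of PC9 measured it above background, no fold and no test is given.

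MXD4, a repressor of the MXD family, had the largest mean rises with gefitinib alone among the members well above background, by 2 of its probes, and all 3 of its probes rose in both lines. For the probe A_23_P423695, untreated PC9 ran from 8.19 at 21 h through 9.21 to 10.12 at 13 h, and gefitinib-treated PC9 from 9.59 at 0 h through 11.07 to 12.27 at 18 h. Untreated PC9M2 ran from 8.37 at 13 h through 9.55 to 10.34 at 1 h, and gefitinib-treated PC9M2 from 9.41 at 13 h through 10.89 to 11.17 at 4 h. All 26 time points were higher under gefitinib in each line, and 24 of the 26 gefitinib arrays in PC9 and 22 in PC9M2 lay above every untreated array. The mean rise was 1.77 (SE 0.1183, adjusted p = 3.76e-13, 3.42-fold) in PC9 and 1.20 (SE 0.0757, adjusted p = 1.73e-13, 2.3-fold) in PC9M2.

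The other MXD4 probes differed in size and not in direction. A_24_P234732 rose by 1.94 (SE 0.1512) in PC9 and 1.33 (SE 0.1023) in PC9M2, and A_23_P259490 by 1.08 (SE 0.1005) and 0.78 (SE 0.1149). With EGF in both arms, A_23_P423695 rose by 1.96 (3.9-fold) in PC9 and by 1.41 in PC9M2, A_24_P234732 by 1.94 and 1.49, and A_23_P259490 2.14-fold in PC9 and by 0.82 in PC9M2. In PC9M2 the 1 time point without a rise was 0.5 h, where the arrays went against their labels, and without it the rises were 0.86 to 1.58.

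The MXD4 rise grew over the course in PC9. For A_23_P423695 it was 0.92 ± 0.35 over 0 to 4 h (SD over 6 time points), 1.84 ± 0.18 over 5 to 9 h and 2.29 ± 0.35 over 20 to 24 h (5 time points each). In PC9M2 it was 0.98 ± 0.49, 1.20 ± 0.34 and 1.54 ± 0.20. In PC9 it rose by 0.0597 per hour (adjusted p = 7.71e-05), and in PC9M2 by 0.0246 per hour, a slope that passed the test only with 0.5 h (adjusted p = 0.0354, and 0.0664 without), and the difference between the slopes was not called (adjusted p = 0.104). The mean rise was smaller in PC9M2 by 0.57 for this probe (SE 0.1153, adjusted p = 3.6e-04) and by 0.61 for A_24_P234732 (adjusted p = 0.0039), while the 0.30 of A_23_P259490 was not called (adjusted p = 0.127). With unpaired courses both calls were lost (adjusted p = 0.0582 and 0.0504).

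MXD3, a family member known for expression in dividing cells, was higher under gefitinib at 23 of 26 time points in each line. Untreated PC9 ran from 8.05 through 8.61 to 9.31 and gefitinib-treated PC9 from 8.68 through 9.14 to 10.57, with 11 of the 26 gefitinib arrays above every untreated one. Untreated PC9M2 ran from 7.44 through 8.48 to 8.94 and gefitinib-treated PC9M2 from 7.44 through 8.86 to 9.39. The rise was 0.69 (SE 0.1121, adjusted p = 4.11e-06) in PC9 and 0.33 (SE 0.0661, adjusted p = 8.74e-05) in PC9M2, and with EGF in both arms 0.91 and 0.57. In PC9 it was 1.06 over 5 to 9 h and 0.09 over 20 to 24 h. The difference between the lines, -0.36, was called (adjusted p = 0.0375), and not without 11 and 16 h (-0.28, adjusted p = 0.100).

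MXI1, whose product also represses through SIN3, rose by 0.37 (SE 0.0875, adjusted p = 4.69e-04) in PC9 and by 0.46 (SE 0.0982, adjusted p = 1.6e-04) in PC9M2, at 22 of 26 time points in each. Untreated PC9 ran from 8.70 through 9.85 to 10.63 and gefitinib-treated PC9 from 9.53 through 10.12 to 10.84. Untreated PC9M2 ran from 8.40 through 9.34 to 10.00 and gefitinib-treated PC9M2 from 8.99 through 9.74 to 10.42. The ranges overlapped widely in both lines. With a standard error inflated for the correlation of neighbouring hours the PC9M2 call was lost (adjusted p = 0.0839). Where both arms held EGF, MXI1 rose by 0.25 (adjusted p = 0.00275) in PC9, a call lost with unpaired courses (adjusted p = 0.134) and with the inflated error (0.119), and the value was 0.01 over the last 13 time points. In PC9M2 it rose by 0.43 with EGF (adjusted p = 4.41e-04), and by the inflated error that call was lost too (adjusted p = 0.0569). The PC9M2 rise with gefitinib alone was 1.34 over 1 to 4 h and -0.01 over 20 to 24 h, with a slope of -0.0481 per hour (SE 0.0097, adjusted p = 2.58e-04), whereas the difference of the slopes between the lines was called over genes (adjusted p = 0.0406) and just missed the threshold over probes (0.0506).

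MXD1, the MXD gene first described as MAD, moved apart in the lines. For the probe A_24_P379750, untreated PC9 ran from 9.71 at 2 h through 10.35 to 11.03 at 16 h, and gefitinib-treated PC9 from 10.80 at 0 h through 11.52 to 12.17 at 18 h. Untreated PC9M2 ran from 10.18 at 5 h through 10.91 to 11.75 at 11 h, and gefitinib-treated PC9M2 from 9.79 at 22 h through 10.44 to 11.75 at 2 h. In PC9 25 of 26 time points were higher under gefitinib, and in PC9M2 11 of 26. The mean difference was 1.12 in PC9 (SE 0.0876, adjusted p = 8.99e-12) and -0.25 in PC9M2 (SE 0.1507, adjusted p = 0.158), and the lines differed by -1.37 (SE 0.1711, 95% interval -1.72 to -1.02, adjusted p = 7.06e-07).

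The average of PC9M2 hid a turn. The MXD1 difference of this probe was 0.73 ± 0.35 over 0 to 4 h (SD over 6 time points), 0.32 ± 0.28 over 5 to 9 h, -0.50 ± 0.60 over 10 to 14 h, -0.80 ± 0.27 over 15 to 19 h and -1.17 ± 0.11 over 20 to 24 h. In PC9 it was 0.95 ± 0.39, 1.32 ± 0.37, 1.38 ± 0.15, 1.07 ± 0.76 and 0.92 ± 0.27 over the same windows. The slope was -0.0943 per hour in PC9M2 (SE 0.01, adjusted p = 2.21e-08) and 0.0006 in PC9 (adjusted p = 0.974), and they differed by -0.0949 (adjusted p = 5.57e-05). Without 0.5 h the difference of the slopes was -0.093 (adjusted p = 2.19e-04).

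With EGF in both arms, this MXD1 probe rose by 0.76 in PC9 (SE 0.0844, adjusted p = 4.52e-09) and fell by 0.52 in PC9M2 (SE 0.1478, adjusted p = 0.00261). The PC9M2 value was 0.37 over 0 to 4 h (0.67 over 1 to 4 h, without 0.5 h) and -1.43 over 20 to 24 h, and 0.10 over the first 13 time points, so that the sign of the mean depended on the hours taken. The other probe (A_23_P408094) gave -0.09 in PC9 (SE 0.086, adjusted p = 0.339) and -0.50 in PC9M2 (SE 0.1928, adjusted p = 0.0212), so that the rise in PC9 with EGF rests on 1 probe. Calls in opposite directions in the lines were made for 1.21% of all genes for gefitinib alone and for 2.43% with EGF.

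The other MXD1 probe (A_23_P408094) moved the same way in part. Untreated PC9 ran from 6.19 through 7.77 to 8.95 and gefitinib-treated PC9 from 6.55 through 7.88 to 9.66, and untreated PC9M2 from 5.21 through 6.92 to 7.70 and gefitinib-treated PC9M2 from 4.01 through 6.18 to 8.29. It was well above background on 24 or more of the 26 arrays of every course. Its differences were 0.28 (SE 0.1071, adjusted p = 0.0248) in PC9 and -0.56 (SE 0.1519, adjusted p = 0.00213) in PC9M2, with -0.83 between the lines (adjusted p = 7.86e-04). With unpaired courses none of these was called (adjusted p = 0.161, 0.0692 and 0.0669). Its PC9M2 difference turned too, from 0.57 ± 0.57 over 0 to 4 h to -1.38 ± 0.25 over 20 to 24 h, with a slope of -0.0903 per hour (adjusted p = 5.12e-07). In PC9 it also ended below 0 (-0.46 ± 0.52 over 20 to 24 h), where the first probe remained at 0.92, so that the probes disagree there.

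**Figure D3:**
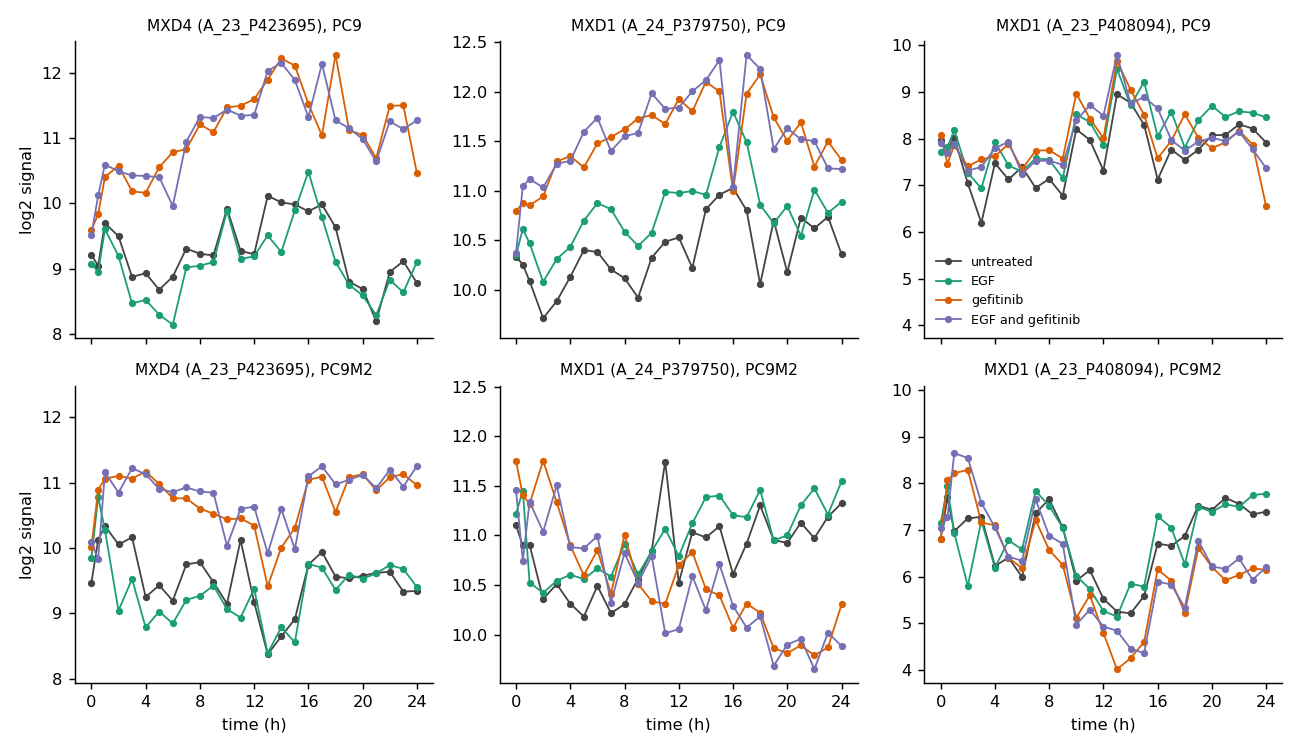
Log2 signal (y axis) against hours (x axis) for 1 probe of MXD4 and both probes of MXD1, in PC9 (top) and PC9M2 (bottom), with 1 array per point and 1 line per treatment. The gefitinib courses of MXD4 lie above the others in both lines, and those of MXD1 in PC9M2 start above the others and end below them.

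MAX, the shared partner, had 3 probes on different transcripts that did not move together. A_23_P205549 (NM_145113) ran from 12.26 through 12.60 to 12.96 in untreated PC9 and from 12.33 through 12.69 to 12.83 with gefitinib, a difference of 0.02 (SE 0.0455, adjusted p = 0.772). In PC9M2 it rose by 0.15 (SE 0.0413, adjusted p = 0.00308). A_23_P151662 (NM_197957) did not pass the test in either line (-0.09 and 0.02). A_23_P436138 (NM_145114) fell by 0.36 (SE 0.0976, adjusted p = 0.0017) in PC9 and by 0.30 (SE 0.0841, adjusted p = 0.0028) in PC9M2, and with 75th percentile scaling neither call held (-0.16, adjusted p = 0.0926, and -0.18, adjusted p = 0.0553).

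MNT, the MAX partner found in most cells, did not pass the test over 26 time points in either line. It ran from 11.96 through 12.65 to 13.40 in untreated PC9 and from 11.64 through 12.65 to 13.12 with gefitinib, and from 11.76 through 12.65 to 12.94 and from 11.77 through 12.50 to 12.84 in PC9M2. The differences were -0.06 (95% interval -0.19 to 0.08) and -0.02 (-0.12 to 0.07), and with EGF in both arms 0.06 and 0.04. In PC9 with EGF the value was -0.08 over the first 13 time points (adjusted p = 0.333) and 0.20 over the last 13, where it was called (adjusted p = 0.00986). For gefitinib alone it was higher at 13 of 26 time points in each line.

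MLX fell with 2 of its 3 probes. For A_23_P164148, untreated PC9 ran from 11.25 through 11.71 to 12.65 and gefitinib-treated PC9 from 10.69 through 11.24 to 11.89, with 13 of the 26 gefitinib arrays below every untreated one. The fall was 0.48 in PC9 (difference -0.48, SE 0.071, adjusted p = 9.29e-07) and 0.26 in PC9M2 (difference -0.26, SE 0.0537, adjusted p = 1.47e-04), at 25 and 23 of 26 time points. A_24_P13991 gave -0.38 and -0.25, both called. A_24_P250176 gave 0.02 and 0.03, neither called, so that the probes disagree. With EGF in both arms the first 2 probes fell in PC9 at every time point, by 0.63 (difference -0.63) and 0.48 (difference -0.48).

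MYCN and MYCL, the paralogues of MYC, were low or erratic. MYCN (A_23_P303390) ranged from 4.45 to 10.83 in untreated PC9 and from 6.06 to 10.10 in untreated PC9M2. Flagged spots left 19 matched time points in PC9, where its difference was -0.07 (SE 0.1823, adjusted p = 0.737). In PC9M2 it fell by 0.30 (SE 0.096, adjusted p = 0.00763), a call lost with unpaired courses (adjusted p = 0.338). Where both arms held EGF, it fell by 0.36 in PC9 (difference -0.36, 20 time points, adjusted p = 0.0165) and by 0.42 in PC9M2 (difference -0.42, adjusted p = 0.00174). Both calls were lost with unpaired courses (adjusted p = 0.434 and 0.14), and in PC9 the mean of both MYCN probes gave 0.19. The other MYCN probe was well above background on 0 to 2 arrays of a course and was not tested.

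MYCL (A_24_P156757) was well above background on 8 untreated and 21 gefitinib arrays of PC9, and on 6 arrays with EGF and 23 with EGF and gefitinib. In PC9M2 the counts were 1, 3, 0 and 5 in the same order. It passed the filter only through the 2 gefitinib courses of PC9, and most values of the other courses lie near background, so that no fold and no test is given. The second MYCL probe (A_23_P160668) was well above background on 5 to 14 arrays of a course.

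The differences with EGF alone stand beside a median absolute difference over all genes of 0.094 in PC9 and 0.071 in PC9M2. Over 26 time points, EGF against untreated was called for 3 members in PC9 (MYC, MXD1 and MXD3) and 1 in PC9M2 (MXD3). MYC stands there by its dim probe, and nothing is read from that call. Beside these counts, 25.6% and 9.07% of all genes were called (of all probes, 22% and 7.02%). The bright MYC probe was higher by 0.22 in PC9 (SE 0.0505, adjusted p = 0.00234, 23 of 26 time points), where saturated spots limit the size. In PC9M2 it was higher by 0.13 (adjusted p = 0.458) with all time points and by 0.20 (adjusted p = 0.0424) without 0.5 h. Both MXD1 probes rose by 0.40 in PC9 (adjusted p = 8.67e-06 and 1.24e-06), and MXD3 fell in both lines (-0.24, adjusted p = 0.00293, and -0.20, adjusted p = 0.0278). Smaller called values were 0.18 for 1 MXD1 probe in PC9M2 (adjusted p = 0.0481), -0.20 for 1 MXD4 probe in PC9, 0.14 for 1 MLX probe in PC9, and 0.10 and 0.11 for 1 MAX probe in the 2 lines. These values share the untreated arrays with the gefitinib comparisons. With unpaired courses no member was called in either line.

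Over 0.5 to 4 h, when MYC would be followed as an early target, 0 members were called by limma or by the methods' t-test in either line, 3 and 2 had an unadjusted p under 0.05, and 0.0151% and 0% of all genes (0.00334% and 0% of all probes) were called. The bright MYC probe was higher with EGF at 5 of 5 early time points in PC9 (0.38, adjusted p = 0.434). Its size is limited by saturation, because 8 spots of the probe were saturated on the EGF array at 0.5 h, 9 at 2 h and 10 at 3 h, and on the untreated arrays 1 at 2 h and 10 at 3 h. In PC9M2 the difference was 0.22 ± 0.39 (SE, n = 5, adjusted p = 0.906), and 0.69 ± 0.34 (SD over 4 time points) from 1 to 4 h, without 0.5 h.

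In the presence of gefitinib, EGF gave 0 called members over genes with all time points, by limma or by the methods' t-test. MYC stands there by its dim probe. By an unadjusted p under 0.05 the count was 0 too, with 0.0453% and 3.11% of all genes (0.0201% and 2.44% of all probes) called. For the bright MYC probe the difference of EGF with gefitinib against gefitinib was 0.10 in PC9 (95% interval -0.01 to 0.21) and -0.04 in PC9M2 (-0.22 to 0.13). Without 0.5 h the latter was -0.13 and was called in the fit over all probes (adjusted p = 0.0252).

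Between the lines, untreated PC9M2 had higher MXD4 and lower MXI1 and MLX, and a difference in MYC that turned with time. Averaged over 26 time points, the bright MYC probe differed between untreated lines by 0.16 (SE 0.1494, 95% interval -0.15 to 0.47, adjusted p = 0.355), and without 0.5, 2 and 3 h, the time points of saturated spots in PC9, by 0.35, which was called (adjusted p = 0.0161). It was lower in PC9M2 over 0 to 4 h (-0.86 ± 0.57, SD over 6 time points) and higher over 10 to 14 h (0.89 ± 0.26, 5 time points). Under gefitinib it was -0.99 ± 0.58 and 1.78 ± 0.39 over the same hours, with a mean of 0.78 (SE 0.2136, adjusted p = 0.00214, higher at 20 of 26 time points). With EGF and gefitinib the mean was 0.64 (adjusted p = 0.00474), and -0.06 over the first 13 time points. MXD4 was higher in untreated PC9M2 by 1.14 (A_24_P234732, SE 0.1506, adjusted p = 1.52e-07) and 0.51 (A_23_P259490, adjusted p = 0.00306), and by 0.25 with the third probe (adjusted p = 0.128). MXI1 was lower (-0.49, adjusted p = 1.1e-05) and MLX was lower with all 3 probes (-0.98, -0.63 and -0.54). The MXD1 probes pointed opposite ways (0.44 and -0.95, both called), and no direction is given for the gene. In all, 5 members were called between untreated lines, 8 under gefitinib, 7 with EGF and 8 with both, against 68.1%, 64.7%, 69.8% and 67.7% of all genes (65.4%, 63.5%, 67.8% and 66% of all probes), and scan period differs with the line throughout.

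The untreated arrays also changed over the 24 h. Each time point of a line was on its own slide, and the lines were scanned on 8 (PC9) and 9 (PC9M2) days, so that time and slide cannot be told apart. A smooth curve over 26 time points was called for 7 members in PC9 and 8 in PC9M2, against 66.5% and 67.5% of all genes (63.4% and 61.6% of all probes). With scan day as a random block the PC9M2 count was 4. The fitted curve of the bright MYC probe spanned 1.71 in PC9, from its highest point at 0 h to its lowest at 24 h (adjusted p = 8.56e-06), and 0.62 in PC9M2 (adjusted p = 0.0832). MXI1 spanned 1.23 in PC9 with its low at 6 h, and 0.91 in PC9M2 with its low at 5 h. MXD4 (A_23_P423695) spanned 1.25 in PC9, highest at 13 h (adjusted p = 0.00434), while its other probes were not called there. These spans are of the size of the gefitinib differences, and the matched comparisons above remove them only where both arms share them.

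Genes known to be raised by MYC fell as groups under gefitinib. The groups were listed from textbook roles, with earlier results of these data known, and the counts and medians are a description only. Whether MYC moved these genes was not tested. Of 27 tested genes of ribosome biogenesis, 22 fell and 2 rose in PC9 (median -1.06, against -0.03 for all genes), and 25 fell and 0 rose in PC9M2 (median -0.73, against -0.01). Of all genes, 37.4% were called lower and 34.8% higher in PC9, and 34% and 32.6% in PC9M2, and every count of a list below stands beside these shares. NOP2, a nucleolar RNA methyltransferase, fell most in PC9 (-1.79, SE 0.1101, and -0.96 in PC9M2), followed by POLR1B, a large subunit of RNA polymerase I (-1.63, SE 0.1205, and -1.16). PES1 and WDR12, which work together in maturing the large ribosomal subunit, rose in PC9 (0.61 and 0.28), while WDR12 fell in PC9M2 (-0.16). Between the lines 17 of the 27 differences were called as less negative in PC9M2 and 3 as more negative (median 0.33, against 0.02 for all genes).

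Of 22 tested genes of metabolism and translation, 15 fell and 2 rose in PC9 (median -0.72, with 37.4% of all genes lower), and 16 fell and 1 rose in PC9M2 (median -0.47, with 34% lower). ODC1, the rate-limiting enzyme of polyamine synthesis, fell by 2.69 in PC9 (difference -2.69, SE 0.2147) and by 1.64 in PC9M2 (difference -1.64), and HK2, a hexokinase of glycolysis, gave -1.67 and -1.49. APEX1, a DNA repair endonuclease (0.38), and IMPDH2, an enzyme of guanine nucleotide synthesis (0.30), rose in PC9. Of 8 tested cell cycle genes, 7 fell and 1 rose in PC9 (median -1.03) and 6 fell and 1 rose in PC9M2 (median -0.85). CDC25A, a phosphatase that activates cyclin-dependent kinases, gave -2.41 and -1.45, TERT, the catalytic subunit of telomerase, -2.10 and -1.99, and E2F2 rose by 1.01 and 0.78.

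Genes known to be repressed by MYC split evenly. Of 9 tested, 5 rose and 4 fell in each line (medians 0.44 in PC9 and 0.23 in PC9M2). The cyclin-dependent kinase inhibitors CDKN1C (2.47, SE 0.145, and 1.55) and CDKN1B (0.94, SE 0.0859, and 0.27) rose most in PC9. GADD45A, a DNA damage and stress gene (-1.77 and -1.12), and THBS1, which codes for thrombospondin-1 (-1.56 and -1.24), fell most, and CDKN1A, another inhibitor of cyclin-dependent kinases, fell too (-1.26 and -0.89). All 9 were called in PC9, beside 72.2% of all genes.

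**Figure D4:**
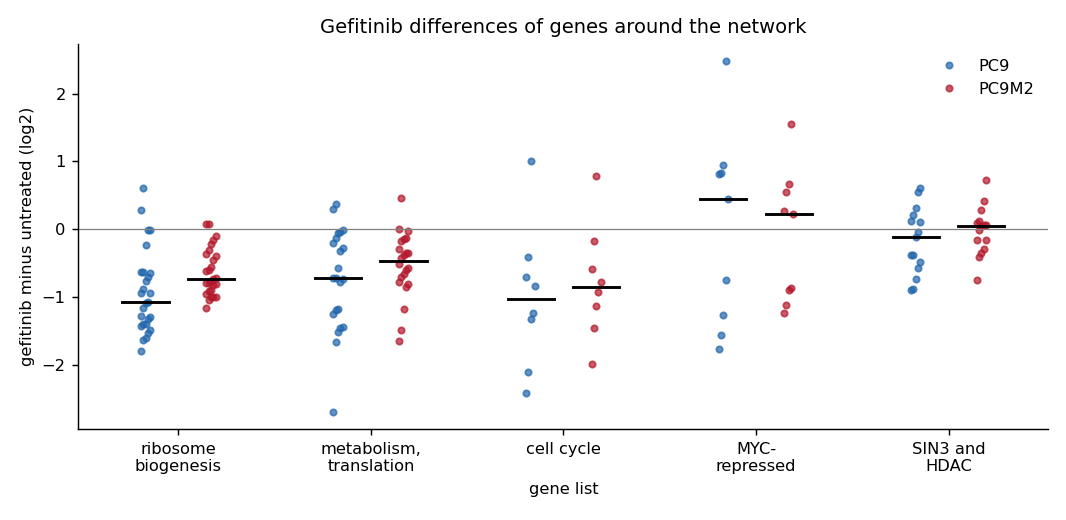
Gefitinib minus untreated in log2 units (y axis) for the tested genes of 5 lists (x axis), with 1 point per gene, PC9 in blue and PC9M2 in red, and black bars at the medians. Most genes of ribosome biogenesis, of metabolism and translation and of the cell cycle lie below 0 in both lines, with medians from -1.06 to -0.47, and the genes repressed by MYC lie on both sides.

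Genes for the partners of the network proteins moved in both directions, and where 72.2% of all genes were called in PC9 and 66.6% in PC9M2 their counts are a description only. Of 15 tested SIN3 and HDAC corepressor genes, 5 rose and 7 fell in PC9 (median -0.12) and 3 rose and 5 fell in PC9M2 (median 0.05), with ARID4B (0.61) and ARID4A (0.55) highest and ING2 (-0.90) and SAP30 (-0.89) lowest in PC9. Of 13 MYC coactivator genes, 3 rose and 7 fell in PC9 (median -0.20) and 3 rose and 4 fell in PC9M2 (median -0.08), with PAF1 (0.46) and ZBTB17 (0.28) highest and WDR5 (-0.98) and RUVBL1 (-0.89) lowest. Of 12 tested genes of MYC protein turnover, 1 rose and 7 fell in PC9 (median -0.25) and 1 rose and 8 fell in PC9M2 (median -0.24). Among them PLK1 rose (0.70), and GSK3B (-1.01) and AXIN1 (-0.75), which act in the degradation of phosphorylated MYC, fell in PC9. The MAX partner MGA rose in both lines (0.44 and 0.17), MLXIPL rose in PC9 (0.98; 0.20 in PC9M2 was not called), and MLXIP was called in neither. Of the MLXIP and MLX targets, ARRDC4 fell (-1.76 and -1.58), and TXNIP rose in PC9 (0.38; 0.13 in PC9M2 was not called).

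The genes whose pattern was most like that of a member were named by Pearson correlation over all arrays, after the mean of each line and time point had been removed, which leaves the differences between treatments. The arrays share slides and courses, and no test is attached. The bright MYC probe was most like THBD (0.949), PLK3 (0.928), SPRY2 (0.923), SPRY4 (0.919) and EGR3 (0.908), and the dim probe, which the rule of the largest variance picks, most like EPHA2 (0.913), TGFA (0.908), CCDC71L (0.907), NOG (0.906) and FGF19 (0.905). MXD4 was most like SPSB3 (0.982), TAB1 (0.981), ZER1 (0.977), CALHM2 (0.973) and XRCC1 (0.972). MYCL is left out here because most of its values lie near background. Many values of the dim MYC probe do too, and nothing is read from its likenesses. Without 0.5 h these values for MYC and MXD4 were 0.902 to 0.982, and without removing the means 0.701 to 0.922. Within the network, the bright MYC probe and MXD4 (A_24_P234732) had r = -0.820, MXD3 and MXD4 had 0.821, and MLX (A_23_P164148) and the dim MYC probe had 0.826.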

How the data were processed

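RNA of 208 samples of the lung adenocarcinoma lines PC9 and PC9M2 was hybridised by the authors to one-colour Agilent arrays, 1 per line, treatment and time point. The deposited scanner files hold the linear intensity of each spot, with background subtracted by Feature Extraction (version 10.5.1.1 per the file headers, on a probe grid of hg18). The deposited table of the series holds the authors' intensity values of the same arrays, quantile normalized over all features.

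As the study's methods did, processed intensities of all arrays were put through 1 quantile normalization. They were then log2 transformed, and averaged over the spots of a probe without control spots and outlier flags. 24794 of 41000 probes were matched to a gene symbol by accession in a RefSeq table and 16206 were not. Probes were kept where 13 or more of the 26 arrays in some course had them well above background. Each gene was represented by its probe of largest variance, and all probes were fitted as well. Differences between courses, paired by time point (the 4 treatments of a line at a time point share a slide), were tested with limma 3.58.1 in R 4.3.3, with Benjamini-Hochberg adjustment over all genes or all probes and a threshold of 0.05. Each time point is 1 array of 1 culture, so p-values measure the spread over time points, and the number of arrays limits the precision. Time trends used a slope on hours, and drift in untreated cells a natural spline with 4 degrees of freedom. The fits were tested on simulated data.

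The members and gene lists were chosen with earlier results of these data known. All members were named, and of each list the 2 largest called rises and falls in PC9 (CDKN1A was added after its values were seen). Alternatives were 75th percentile scaling, normexp background correction (on median spot and background signals, offset 50), the deposited table, other choices of probe and filter, unpaired courses, time points 3 h apart, each part of 13 time points, scan day as a random block, a standard error inflated for autocorrelation, the methods' t-test and a 2-fold minimum. The slope difference between lines, the fits per probe under each alternative, and the fits without 0.5 h, without 0.5, 2 and 3 h, and without 11 and 16 h were chosen after seeing the data. Promoters came from RefSeq (GRCh38.p14); the promoter of MYC and protein sequences were not analysed here. 1 marker of another cell type is not reported here.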

Additional observations from a re-analysis of the deposited data

Results flagged for a closer look

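The gefitinib difference of 4 members (MXD1, MYC, MXD4 and MXD3) differed between PC9M2 and PC9 by a test of the difference itself (limma over all probes, adjusted p over 29917 probes). In that test 30% of all probes and 34.1% of all genes were called, with 3 of the 10 members over genes, so that the count was near the background. For the difference of the slopes, 13.8% of all probes and 18.2% of all genes were called. For MXD1 it was lower in PC9M2 by both probes, by -1.37 (A_24_P379750, adjusted p = 7.06e-07, lower at 24 of 26 time points) and -0.83 (A_23_P408094, adjusted p = 7.86e-04, lower at 20 of 26), and its slope over time differed by -0.09 per hour (adjusted p = 5.57e-05) and -0.06 per hour (adjusted p = 0.0496). With unpaired courses the -0.83 of A_23_P408094 was not called. For MYC (A_23_P215956) the fall was smaller in PC9M2 by 0.62 (adjusted p = 1.75e-04, 22 of 26 time points) and the slope differed by 0.04 per hour (adjusted p = 0.0418). The call of 0.62 was lost with unpaired courses, with time points 3 h apart and over the first 13 time points. The slope call was lost without 0.5 h. The rise of MXD4 was smaller in PC9M2, by -0.57 (A_23_P423695, adjusted p = 3.6e-04, 22 of 26 time points) and -0.61 (A_24_P234732, adjusted p = 0.0039, 18 of 26). Both MXD4 calls were lost with unpaired courses. The rise of MXD3 differed by -0.36 (adjusted p = 0.0375, 17 of 26), a call lost without the time points of the arrays least like their neighbours. For MXI1 the slope of the rise differed by -0.0333 per hour in the fit over genes (adjusted p = 0.0406) and missed the threshold in the fit over probes (0.0506). Scan period and line cannot be told apart in any of these.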

How the results depend on the processing

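Of the counts of members called under an alternative, 285 stayed within 1.5 times the main count and 42 did not. The share of all genes called under each alternative is not given here. A change in a count is therefore not read as a result about the members. With a 2-fold minimum the counts were 3 for gefitinib alone and with EGF in each line. Those genes were MXD4, MYCL and MYC by its dim probe, and nothing is read from MYCL or that probe. With the same minimum the counts were 0 for EGF in each line and 1, 2, 3 and 2 between the lines (untreated, gefitinib, EGF, both). They were 0 for the difference of the gefitinib effect between lines and 1 for its slope. Without pairing by time point (no replicate block) they were 0 for EGF in both lines and 1 for the gefitinib effect between lines. At time points 3 h apart they were 1 and 0 for EGF, 3, 5 and 4 between the lines (untreated, gefitinib, both) and 1 for the effect between lines. The first 13 time points gave 4 for gefitinib in PC9M2, 0 for EGF in PC9M2, 5 between the lines with both agents and 1 for the effect between lines, and the last 13 gave 5 between the lines under gefitinib and under both. The inflated standard error gave 5 for gefitinib with EGF in PC9M2 and 3 and 2 between the lines (gefitinib, both). Scan day as a block gave 1 for the effect between lines, 2 for the slope of the gefitinib difference within PC9M2 and 4 for drift in PC9M2. The mean of all probes gave 5 and 3 for EGF, 5 for the effect between lines and 4 for its slope, and the brightest probe 3 for EGF in PC9M2. The slope difference between lines gave 0 members with 75th percentile scaling, 0 without a filter, 0 without 0.5, 2 and 3 h and 1 without 0.5 h. Early EGF stayed at 0 to 0 with each time point left out.

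Directions reversed as follows. Over the first 13 time points MXD1 under gefitinib in PC9M2 was 0.016, with EGF 0.130 (A_23_P408094) and 0.100 (A_24_P379750), and the MYC difference between lines with both agents was -0.061. Over the last 13, MXD4 between lines under gefitinib was -0.134 and MLX (A_24_P250176) with EGF in PC9 0.121. With the brightest probe MXD1 was 0.760 for gefitinib with EGF in PC9 and 0.439 and 0.213 between lines (untreated, EGF), and MAX for gefitinib with EGF in PC9M2 0.024. With the mean of all probes MXD1 was 0.334 and MYCN 0.190 for gefitinib with EGF in PC9. With 75th percentile scaling MAX (A_23_P205549) for gefitinib with EGF in PC9M2 was -0.079. The cause was not tested. Signal over background limits MYCL, 1 MYCN probe and the dim MYC probe, and saturation limits MYC in PC9.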
